A study of Mus musculus with 6 samples.

Results

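The proteasome is the cell's main protease for proteins tagged with ubiquitin, and the genes described here are its subunits, its assembly chaperones and its regulators. Members were the rows of the deposited count table whose symbol starts with Psma, Psmb, Psmc, Psmd, Psme, Psmf or Psmg followed by a digit, without Psmb8 and Psmb9. This gave 48 of 24421 rows, of which 46 passed the filter on low counts and were tested among 11805 genes. The table comes from RNA sequencing of group 2 innate lymphoid cells (ILC2), tissue lymphocytes without antigen receptors, that were sorted from mouse brain and grown for 2 weeks with IL-7, IL-2, IL-33, stem cell factor and 20% serum. The old group held 3 libraries from C57BL/6 mice of 20 to 22 months, and the young group held 3 libraries from C57BL/6 mice of 2 to 3 months. C57BL/6 is an inbred strain, and no genotype or further treatment separates the groups in the labels. Separate animals, pools or cultures are not told apart in the labels, and a p-value here therefore covers the spread of 3 libraries a group, part of which may be technical.

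The 26S proteasome consists of a barrel, the 20S core, with a cap, the 19S regulator, on its ends. In the core, outer rings of alpha subunits gate the entry, and inner rings of beta subunits carry the proteolytic sites on Psmb6 (beta 1), Psmb7 (beta 2) and Psmb5 (beta 5). Immune cells can exchange these for Psmb9, Psmb10 and Psmb8, which makes the immunoproteasome known for cutting peptides for MHC class I. In the 19S cap a ring of ATPases (Psmc genes) unfolds the substrate, and non-ATPase subunits (most Psmd genes) bind and remove ubiquitin. Dedicated chaperones assemble both particles, and other caps, PA28 and PA200, open the core without using ATP.

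Library totals ran from 17314428 to 17796301 counts in old and from 16477157 to 20804291 in young libraries. Levels are given as CPM, the usual depth-scaled count unit after TMM scaling, whose factor is computed from the bulk of genes and was 0.840 to 0.885 in old and 1.12 to 1.18 in young libraries. The 10 ILC2 markers checked were all tested and summed to between 4323 and 6165 CPM of library totals in old and between 8644 and 10236 in young libraries. The NK cell and ILC1 markers Eomes, Tbx21, Ncr1 and Klrb1c and the lineage markers Cd3e, Cd79a and Csf1r had 0 counts in all libraries. Of 7 microglia and macrophage markers 6 were tested, and the list summed to 47.9 to 75.2 CPM of totals in old and 6.85 to 20.9 in young libraries. In this list Csf1r alone was at 0 in all libraries, and the part of such cells in the results was not tested. B cell markers, of which 1 of 3 was tested, summed to 27.9 to 51.6 CPM of totals in old and 15.96 to 25.7 in young libraries. The T cell, dendritic cell and mast cell lists summed to at most 12.98 in old and 15.3 in young libraries.

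The proteasome genes taken by the rule split by particle between old and young cultures. Transcripts of the 20S core were higher in old libraries, with 9 of 14 tested ring subunits called higher and none lower (edgeR quasi-likelihood test, Benjamini-Hochberg adjusted p under 0.05 over all tested genes). The count of lower ring genes was 0 also at an unadjusted p under 0.05 and by DESeq2 and limma-voom. In bulk RNA a different mix of cells and a different amount of RNA per cell cannot be told apart, and transcripts were measured, not assembled proteasomes. In the 19S cap 1 of the 17 tested subunits taken by the rule was called higher and 1 lower. Of these 17, 16 had a log2 change below 0, as had 54.6% of all tested genes. All 14 ring genes had one above 0, as had 45.4% of all tested genes. Among members the largest rise was that of Psmb2 in the core (log2 change 0.96 ± 0.11, SE) and the largest fall that of Psmd1 in the cap (-1.08 ± 0.20). Shfm1 (Sem1), a 19S subunit that the rule does not take, went against this split and was called higher (1.15 ± 0.15). The ubiquitin receptor Adrm1, also outside the rule, was not called (-0.10 ± 0.20). Over all 46 tested members 12 were higher and 1 lower, beside 11.2% higher and 8.14% lower among all tested genes. The median log2 change was 0.63 over the 20S ring subunits, -0.38 over the 19S subunits and 0.15 over all tested members, beside -0.10 over all tested genes. In 25 members the groups did not overlap, 18 with old above and 7 with old below, an absence of overlap found in 38.2% of all tested genes. DESeq2 called 14 members higher and 3 lower, beside 13.9% and 10.4% of its tested genes, and limma-voom 13 and 3, beside 12.1% and 8.44%. Library totals as the scaling gave 1 higher and 17 lower, beside 6.07% and 20.2%, and turned the median of the members to -0.27. Offsets on transcript length and GC content gave 5 and 6, beside 10.6% and 5.49%, and offsets on coding length 6 and 1, beside 8.81% and 4.86%. RLE factors gave 12 and 1, beside 11.7% and 7.55%. No filter on low counts gave 12 and 3, beside 9.09% and 7.08%, and a minimum count of 50 gave 12 and 2, beside 13.4% and 9.51%. The replicate number as a block gave 11 and 1, beside 10.2% and 6.78%, and the block with offsets on transcript length and GC content 5 and 4, beside 8.89% and 3.99%.

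**Figure D1:**
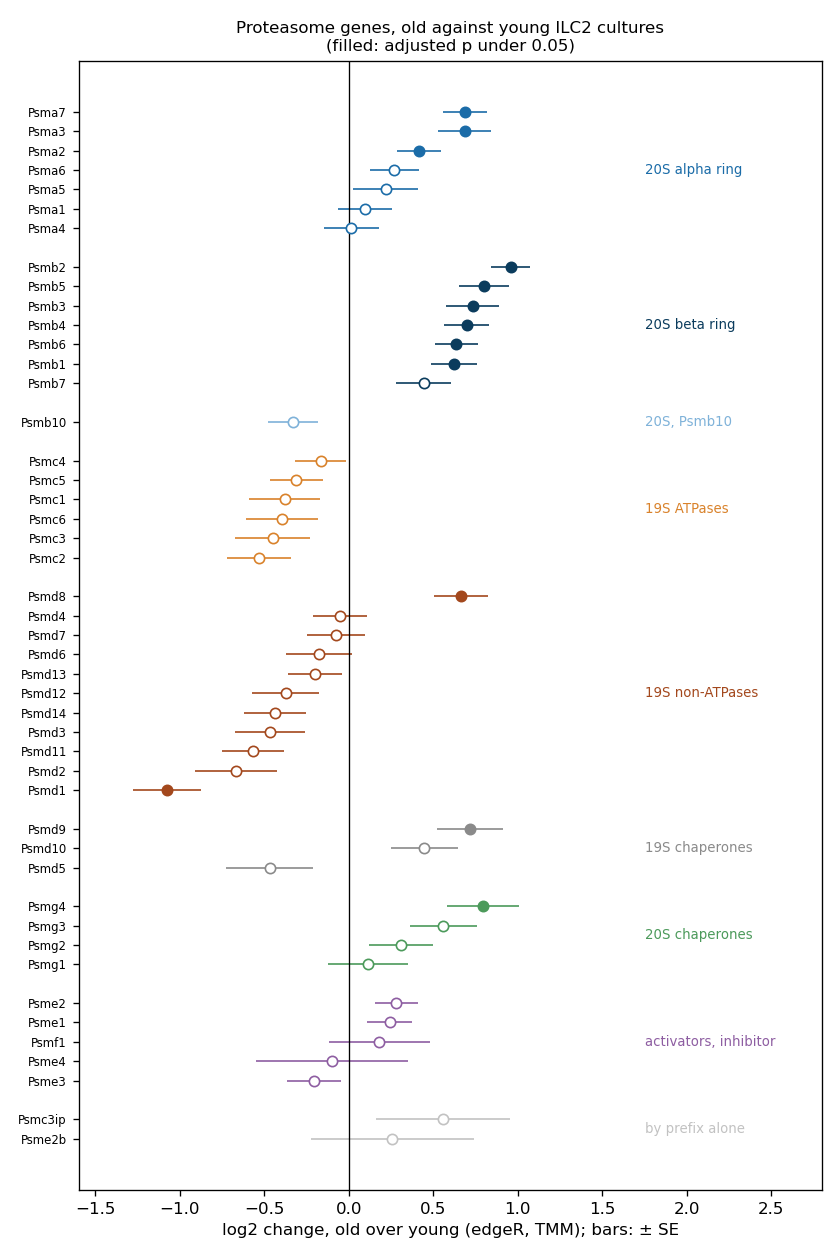
Log2 change of each tested proteasome gene in old over young libraries (x axis, edgeR with TMM scaling, bars ± SE), grouped by particle; filled points had an adjusted p under 0.05. The alpha and beta ring genes lie at or right of 0, and the ATPase and non-ATPase genes other than Psmd8 lie left of 0.

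Promoter letters of 6 members are shown because the 20S and 19S genes differed in direction and because proteasome genes are known to be driven jointly through antioxidant response elements (ARE), which the factor NFE2L1 binds when proteasome function is short. The sequences are RefSeq windows of GRCm38.p6, from 250 bases before to 50 bases after a transcription start, written 5′ to 3′ on the gene's strand. Capitals mark the ARE core TGACNNNGC or TGAGNNNGC and the ETS core CCGGAAG, searched on both strands. Psmb5, Psmb6 and Psmd9 are the called members with the C form of the ARE core, and Psmd1, Psmd2 and Psmd11 are the non-ATPase subunits with the most negative changes. Their windows are chr14:54617946-54618245 (minus strand) for Psmb5, chr11:70525107-70525406 (plus) for Psmb6, chr5:123227940-123228239 (plus) for Psmd9, chr1:86064369-86064668 (plus) for Psmd1, chr16:20651402-20651701 (plus) for Psmd2 and chr11:80428365-80428664 (plus) for Psmd11.
Psmb5: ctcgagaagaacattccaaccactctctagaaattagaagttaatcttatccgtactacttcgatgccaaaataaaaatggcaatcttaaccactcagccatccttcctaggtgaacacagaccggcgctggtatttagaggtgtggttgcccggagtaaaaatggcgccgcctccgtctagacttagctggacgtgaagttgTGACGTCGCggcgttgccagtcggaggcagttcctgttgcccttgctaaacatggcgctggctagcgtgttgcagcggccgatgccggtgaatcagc
Psmb6: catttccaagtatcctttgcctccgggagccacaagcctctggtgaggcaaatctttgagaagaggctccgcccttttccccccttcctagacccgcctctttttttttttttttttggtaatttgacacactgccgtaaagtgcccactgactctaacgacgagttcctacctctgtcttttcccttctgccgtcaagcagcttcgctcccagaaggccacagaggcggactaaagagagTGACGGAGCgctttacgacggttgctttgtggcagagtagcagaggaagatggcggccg
Psmd9: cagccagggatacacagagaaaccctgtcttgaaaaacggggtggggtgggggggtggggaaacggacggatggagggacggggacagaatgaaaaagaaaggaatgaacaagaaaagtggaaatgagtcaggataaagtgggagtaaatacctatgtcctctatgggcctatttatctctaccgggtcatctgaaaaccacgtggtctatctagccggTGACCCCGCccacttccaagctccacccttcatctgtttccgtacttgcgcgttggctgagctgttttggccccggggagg
Psmd1: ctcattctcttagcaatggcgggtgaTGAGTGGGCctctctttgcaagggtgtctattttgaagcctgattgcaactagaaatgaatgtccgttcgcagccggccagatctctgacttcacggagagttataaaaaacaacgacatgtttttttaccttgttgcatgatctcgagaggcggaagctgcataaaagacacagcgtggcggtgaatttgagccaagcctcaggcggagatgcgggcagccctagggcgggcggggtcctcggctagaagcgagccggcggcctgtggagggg
Psmd2: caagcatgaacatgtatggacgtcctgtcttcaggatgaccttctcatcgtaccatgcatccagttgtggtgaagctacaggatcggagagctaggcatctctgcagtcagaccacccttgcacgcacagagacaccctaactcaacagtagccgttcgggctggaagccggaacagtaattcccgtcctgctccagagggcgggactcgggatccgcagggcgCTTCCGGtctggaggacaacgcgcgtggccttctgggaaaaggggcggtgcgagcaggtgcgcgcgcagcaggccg
Psmd11: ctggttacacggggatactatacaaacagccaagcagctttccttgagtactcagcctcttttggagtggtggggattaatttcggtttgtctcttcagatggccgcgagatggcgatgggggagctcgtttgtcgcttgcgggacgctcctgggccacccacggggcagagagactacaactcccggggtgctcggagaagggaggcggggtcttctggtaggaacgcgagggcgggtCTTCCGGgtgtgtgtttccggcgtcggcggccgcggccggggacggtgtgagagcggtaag

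In these windows the ARE core began 47 bases before the start in Psmb5, 9 in Psmb6 and 31 in Psmd9, while the G form in Psmd1 lay 224 bases before it. The C form also stood in Psmc6, Psmd12 and Psme4, at 227, 247 and 7 bases before the start. These genes were not called, with log2 changes of -0.40, -0.37 and -0.10, and Psmd12 also had a G form at 28 bases. Among members with a window, the C form stood in 3 of 10 called higher and in 3 of 29 other tested ones. Whether the C form or its place bears on the changes was not tested. Windows were matched for 40 of the 48 members, without Psma8, Psmb1, Psmb2, Psmb7, Psmc3, Psmd3, Psmd7 and Psmg2. Of the 20S ring genes 7 of 11 had either form of the ARE core (Psma4, Psma5, Psma6, Psma7, Psmb3, Psmb5 and Psmb6), against 5 of 14 19S genes (Psmc2, Psmc6, Psmd1, Psmd12 and Psmd13) and 30.8% of all genes with a window. Taken singly, the C form stood in 2 of 11 20S ring genes and 2 of 14 19S genes, with 14.0% of all genes. The G form stood in 5 of 11 and 5 of 14, with 19.8% of all genes. The ETS core ran the other way, in 1 of 11 20S ring genes (Psma6) and 9 of 14 19S genes (Psmc1, Psmc2, Psmc6, Psmd2, Psmd4, Psmd6, Psmd11, Psmd12 and Psmd13), with 9.93% of all genes. A CCAAT box (CCAAT) stood in 6 of 11 and 4 of 14, with 41.1% of all genes. None of the motif matches overlapped another motif in the members' windows. The motifs were picked after the changes were known, and a match describes letters and not a bound site.

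In the beta ring 6 of 7 genes rose, and in each of the 7 all old libraries lay above all young ones, an order found in 19.3% of all tested genes. Psmb2 (beta 4, a structural subunit; chromosome 4, 126677630 to 126709714) had 1383, 1365 and 1340 CPM in old libraries 1 to 3, against 685, 656 and 764 CPM in young libraries 1 to 3. The old values were close together and far above all young ones, a 1.94-fold rise (adjusted p = 0.000262, edgeR). Psmb5, whose product holds the chymotrypsin-like site that bortezomib blocks, had 302, 328 and 286 CPM in old libraries, against 165, 163 and 199 CPM in young libraries. Its log2 change was 0.80 ± 0.15 (SE; adjusted p = 0.0035, edgeR). Psmb6, which carries the caspase-like site, had 736, 765 and 736 CPM in old and 433, 473 and 533 CPM in young libraries, a log2 change of 0.64 ± 0.13 (adjusted p = 0.00512, edgeR). Psmb4, a structural subunit, had 578, 677 and 564 CPM in old and 355, 356 and 412 CPM in young libraries, with a log2 change of 0.70 ± 0.13. The structural subunits Psmb3 and Psmb1 rose by 0.73 and 0.62 on the log2 scale. Psmb7, which carries the trypsin-like site, was the single beta ring gene not called. It had 333, 376 and 376 CPM in old and 250, 222 and 325 CPM in young libraries, so that the groups were only just apart (log2 change 0.44 ± 0.16; adjusted p = 0.0834, edgeR). DESeq2 and limma-voom called it higher. With library totals as the scaling Psmb2 alone kept its call in this ring. The calls of Psmb3, Psmb5 and Psmb6 were also lost in the fits described below that remove the trend on length and GC content, that of Psmb4 in the one on transcript length, and that of Psmb1 without young library 1.

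The alpha ring was split. Psma7, Psma3 and Psma2 rose, and Psma6, Psma5, Psma1 and Psma4 were not called, at 0.27, 0.22, 0.10 and 0.01 on the log2 scale. Psma7 (alpha 4) had 1311, 1334 and 1273 CPM in old and 753, 731 and 952 CPM in young libraries, with a log2 change of 0.69 ± 0.13 (adjusted p = 0.00401, edgeR). Psma3, whose product helps to close the gate of the core, had 495, 538 and 531 CPM in old and 318, 263 and 392 CPM in young libraries (0.68 ± 0.16; adjusted p = 0.0114, edgeR). Psma2 had 1020, 1051 and 1050 CPM in old and 781, 674 and 884 CPM in young libraries (0.42 ± 0.13; adjusted p = 0.0433, edgeR). Its call was lost without old library 1, 2 or 3, without young library 1 or 2, and in the fit on coding length. The call of Psma3 was lost without young library 1 and that of Psma7 in the fit on transcript length, and with library totals no alpha gene was called. In each of the 4 genes not called young library 3 lay above old library 1, so that the groups overlapped. Psma6 had 652, 681 and 735 CPM in old and 543, 491 and 682 CPM in young libraries. Psma8, which replaces Psma7 in germ cells, was not tested, with counts of 0, 0 and 7 in old and 10, 0 and 0 in young libraries.

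Subunits of the core share a stoichiometry in the particle but not a transcript level. Per kilobase of coding sequence the beta ring ran in old libraries from 386 CPM for Psmb5 to 2260 CPM for Psmb2, 5.86-fold apart, and in young libraries from 221 to 1164 CPM for the same genes, 5.26-fold apart. The order of the 7 beta genes was the same in both groups, Psmb2, Psmb1, Psmb3, Psmb6, Psmb4, Psmb7 and Psmb5 from high to low. Some neighbours in it did not differ beyond their spread, such as Psmb2 and Psmb1 in young libraries, at 1164 ± 92.4 and 1034 ± 170 CPM per kilobase (SD, n = 3). The alpha ring ran in old libraries from 282 for Psma4 to 1755 for Psma7, and in young libraries from 279 for Psma4 to 1111 for Psma2. These levels and orders depend on the use of coding length. Psma2 has 702 coding bases in a transcript of 2911, and Psma7 has 744 in 914. Levels per kilobase of transcript were not computed. At the low ends 40.0% of the 75-base words of Psmb5 and 16.7% of those of Psma4 recur in other annotated genes. The 19S ATPases were the most even, from 89.0 to 156 CPM per kilobase in old and from 129 to 195 in young libraries. The non-ATPase subunits were spread widest, from 27.9 for Psmd1 to 678 for Psmd8 in old and from 50.2 for Psmd2 to 428 for Psmd8 in young libraries.

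**Figure D2:**
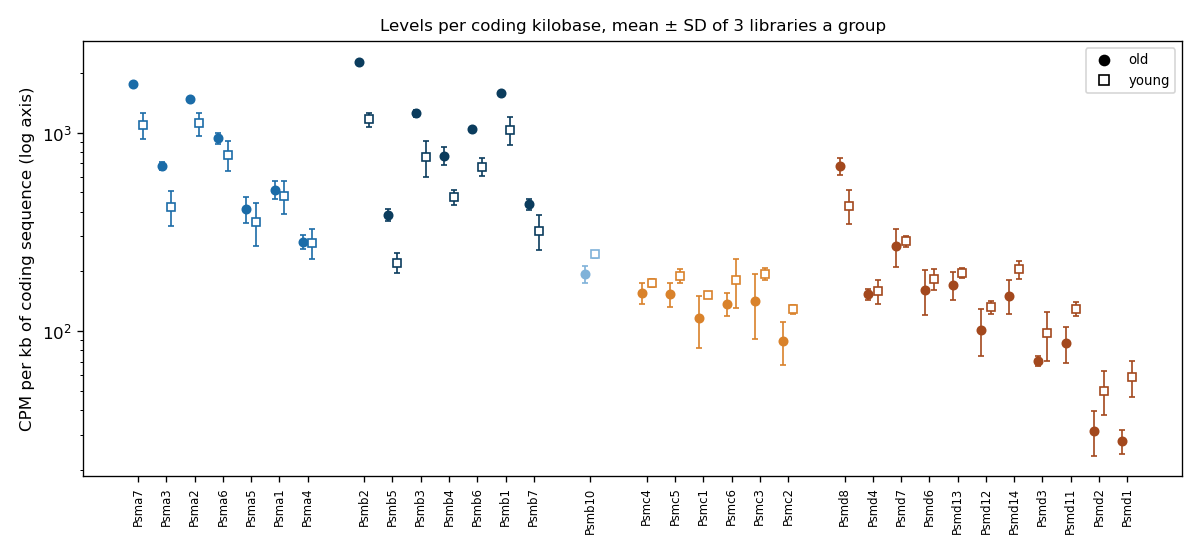
CPM per kilobase of coding sequence (y axis, log scale) for 20S and 19S subunit genes, mean ± SD of 3 old (filled circles) and 3 young (open squares) libraries. Psmd8 stands above the other 19S subunits in both groups, and Psmd1 and Psmd2 lie at the bottom.

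Psmb10 had the opposite sign to the beta ring. It encodes beta 2i, the inducible partner that takes the place of Psmb7, and had 142, 162 and 173 CPM in old libraries, against 204, 206 and 191 CPM in young libraries. All old values were below all young ones, an order found in 18.8% of all tested genes, yet the gene did not pass the test (log2 change -0.33 ± 0.15; adjusted p = 0.155, edgeR). It was called lower in old libraries with library totals as the scaling (log2 change -0.75) and in the fits that remove the trend on length and GC content (-0.77 on transcript length and -0.67 on coding length). The count ratio of Psmb10 to Psmb7, which needs no scaling, was 0.427, 0.432 and 0.460 in old and 0.818, 0.924 and 0.588 in young libraries. The other inducible subunits, Psmb8 and Psmb9, are not members by the rule and rose by 0.50 and 0.66 on the log2 scale (adjusted p = 0.0163 and 0.0105, edgeR). Both calls were lost with library totals (0.08 and 0.24), with offsets on transcript length (0.22 and 0.26) and with offsets on coding length (0.19 and 0.22), and that of Psmb8 also without old library 1, old library 2 or young library 1. The count ratio of Psmb9 to its constitutive partner Psmb6 was 0.581, 0.530 and 0.450 in old and 0.596, 0.465 and 0.486 in young libraries, which overlapped. The ratio of Psmb8 to Psmb5 was 4.98, 4.79 and 4.33 in old and 6.16, 6.04 and 5.34 in young libraries. By these count ratios Psmb10 and Psmb8 were lower in old libraries relative to the constitutive partner, and Psmb9 was at overlapping ratios. A count ratio keeps the trend on length. With offsets on transcript length the log2 changes were 0.22 for Psmb8 and 0.13 for Psmb5, and 0.26 for Psmb9 and -0.05 for Psmb6. Psmb10 and Psmb7 were at -0.77 and 0.12. With offsets on coding length these pairs were at 0.19 and 0.41, 0.22 and 0.23, and -0.67 and 0.45. Of the 75-base stretches of Psmb5 and Psmb7, 40.0% and 24.1% recur in other annotated genes. Psmb11, the thymus-specific beta 5t, had 2 counts in old library 2 and 0 in all others, and was not tested.

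In the 19S base none of the 6 ATPase genes passed the test, and all 6 had log2 changes below 0, from -0.53 for Psmc2 to -0.17 for Psmc4. Among all tested genes 11.2% were called higher and 8.14% lower, and 54.6% had a log2 change below 0. At an unadjusted p under 0.05 edgeR gave 0 higher and 1 lower, DESeq2 called 0 and limma-voom called 1 lower. DESeq2 and limma-voom called 10.4% and 8.44% of their tested genes lower. Psmc2 (Rpt1) had 102, 117 and 161 CPM in old and 187, 190 and 173 CPM in young libraries (log2 change -0.53 ± 0.19; adjusted p = 0.0756, edgeR). Psmc3 (Rpt5) had 159, 140 and 267 CPM in old and 262, 239 and 274 CPM in young libraries (-0.45 ± 0.22). Old library 3 stood at the level of the young libraries for Psmc3 and was the highest old library for all 6 genes. Without it Psmc2 and Psmc3 were called lower. Summed ATPase transcripts were 895, 917 and 1222 CPM in old and 1286, 1258 and 1365 CPM in young libraries.

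Among the 11 non-ATPase subunits Psmd1 fell, Psmd8 rose and 9 did not pass, beside 8.14% lower and 11.2% higher among all tested genes. Psmd1 (Rpn2, the large scaffold of the base; chromosome 1, 86064387 to 86139151) had 84.3, 67.4 and 87.4 CPM in old libraries, against 128, 188 and 188 CPM in young libraries. The groups were well apart, with a log2 change of -1.08 ± 0.20 (adjusted p = 0.0039, edgeR), which the fit on coding length and GC content reduced to -0.27 without a call. The call was also lost with the replicate block and offsets on transcript length together. Psmd2 (Rpn1), the other large scaffold, had 88.4, 62.9 and 107 CPM in old and 130, 174 and 107 CPM in young libraries and did not pass (-0.67 ± 0.24; adjusted p = 0.078, edgeR). Psmd11 (Rpn6), which clamps the lid to the core, had 102, 93.5 and 135 CPM in old and 149, 176 and 165 CPM in young libraries and missed the threshold narrowly (-0.57 ± 0.18; adjusted p = 0.0536, edgeR). It was called lower by DESeq2, by limma-voom, with library totals, under both other filters and without old library 3. Psmd14 (Rpn11), the enzyme that cuts off ubiquitin chains, had 160, 109 and 153 CPM in old and 205, 168 and 197 CPM in young libraries (-0.44 ± 0.18; adjusted p = 0.129, edgeR). The ubiquitin receptor Psmd4 (Rpn10), with -0.05, and Psmd7 (Rpn8), the partner of Psmd14, with -0.08, were nearest to 0.

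Psmd8 (Rpn12) was the single one of the 17 19S genes taken by the rule with a log2 change above 0. It had 646, 789 and 720 CPM in old libraries, against 387, 419 and 554 CPM in young libraries, a log2 change of 0.66 ± 0.16 (adjusted p = 0.0133, edgeR). Its call was lost without old library 2, without young library 1, with library totals and in the fit on transcript length, while its log2 change was 0.67 and called in the fit on coding length. It had the highest CPM of the 11 non-ATPase genes in every library, and their sum overlapped between groups. The sum was 2045, 2124 and 2431 CPM in old and 2205, 2386 and 2414 CPM in young libraries. The count ratio of Psmd8 to Psmd1 was 7.67, 11.7 and 8.24 in old and 3.02, 2.23 and 2.94 in young libraries.

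A ratio of counts within a library carries no scaling factor, so the balance of core to cap was read from it. Summed counts of the 15 20S ring genes over those of the 17 19S genes gave ratios of 3.26, 3.25 and 2.70 in old libraries 1 to 3, against 1.80, 1.57 and 2.01 in young libraries 1 to 3. The means were 3.07 ± 0.32 in old and 1.80 ± 0.22 in young libraries (SD, n = 3 each), and the groups did not overlap. The 17 19S genes leave out the 19S subunit Shfm1, which lacks the prefix. Shfm1 had 17727, 18352 and 18164 counts in old and 10402, 10499 and 12587 in young libraries. The 17 genes summed to 44347, 45127 and 57469 counts in old and 66896, 89442 and 74276 in young libraries. Adding Shfm1 would lower the ratios, more so in old libraries, and ratios with it were not computed. Old library 3, with the highest 19S sum of its group, and young library 3, with the highest 20S sum of its group, were nearest to each other. The ratio of beta ring to alpha ring counts was also apart between groups, at 1.22, 1.20 and 1.13 in old and 0.951, 1.01 and 0.930 in young libraries. With library totals as the scaling 1 of 14 ring genes (Psmb2) was called higher and none lower, and 0 of 17 19S genes were higher and 14 lower, beside 6.07% higher and 20.2% lower among all tested genes. Under that scaling the summed core was 8346, 8302 and 8707 CPM in old and 7314, 6768 and 8540 CPM in young libraries. The summed cap, of the same 17 genes without Shfm1, was 2561, 2552 and 3229 CPM in old and 4060, 4299 and 4240 CPM in young libraries. The core overlapped between groups on that scale and the cap did not. Whether core genes were called higher or cap genes lower thus rested on the scaling, which moved the median log2 change of all tested genes to -0.52.

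**Figure D3:**
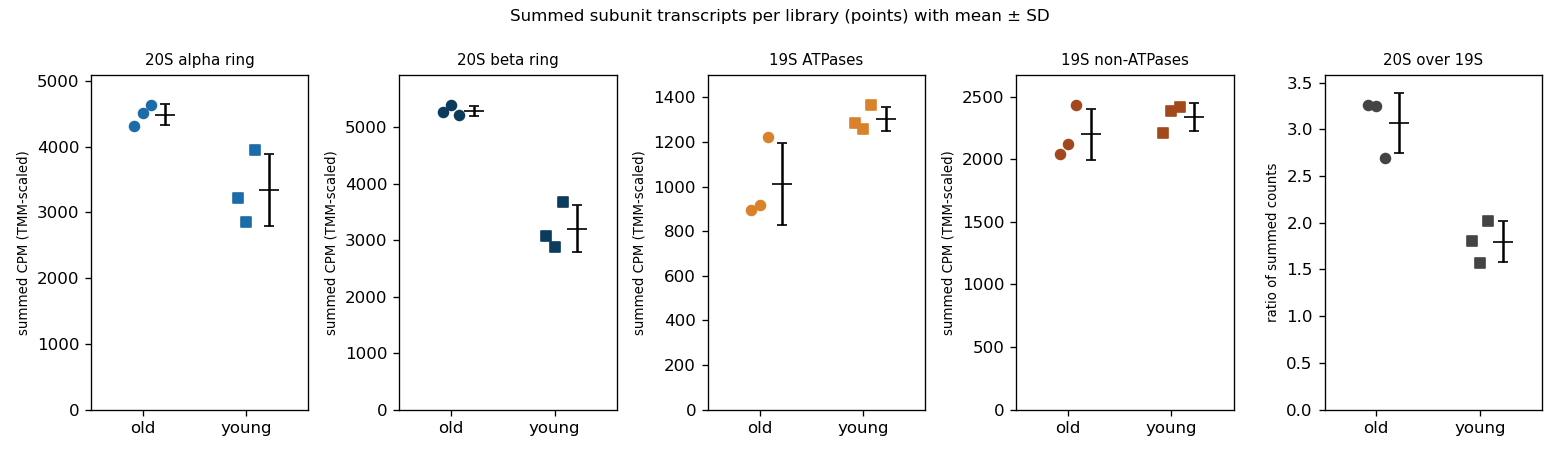
Summed TMM-scaled CPM of the 20S alpha ring, the 20S beta ring, the 19S ATPases and the 19S non-ATPases, and the ratio of summed 20S to 19S counts (y axes start at 0); points are libraries, black marks are the mean ± SD of 3 libraries. The ratio lies between 2.70 and 3.26 in old and between 1.57 and 2.01 in young libraries.

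Gene length moved with this split. Coding lengths were 603 to 831 bases in the 20S ring genes tested and 930 to 2859 bases in the 17 19S genes taken by the rule. These sets do not overlap in length. Across the 46 tested members the Spearman correlation of log2 change with coding length was -0.815, and it was -0.419 across 11142 tested genes with a coding length. Genes of the same libraries share their error, and these correlations are descriptions. Among the 17 19S genes it was -0.740 and among the 14 20S ring genes -0.196. The 7 19S genes of at most 1200 coding bases had a median log2 change of -0.18, with 6 below 0. The part of length in the split was not tested beyond the fits that follow. In a fit added once the values were known, offsets removed each library's trend on coding length and GC content. In it 5 of 14 ring genes were higher and none lower, and 1 of 17 19S genes was higher (Psmd8) and none lower, against 8.81% and 4.86% of all genes. With transcript length in place of coding length 4 ring genes were higher (Psma2, Psma3, Psmb1 and Psmb2) and 1 lower (Psma4), and 4 19S genes were lower (Psmc2, Psmc5, Psmd1 and Psmd14), against 10.6% and 5.49%. The 20S median stayed above the 19S median in both, by 0.43 with coding length and 0.58 with transcript length, against 1.01 without offsets. Psmb2 kept its call under all alternatives run (log2 change 0.47 with transcript length and 0.71 with coding length). Psmb10, with 819 bases in the range of the rings, had a negative change in every fit.

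**Figure D4:**
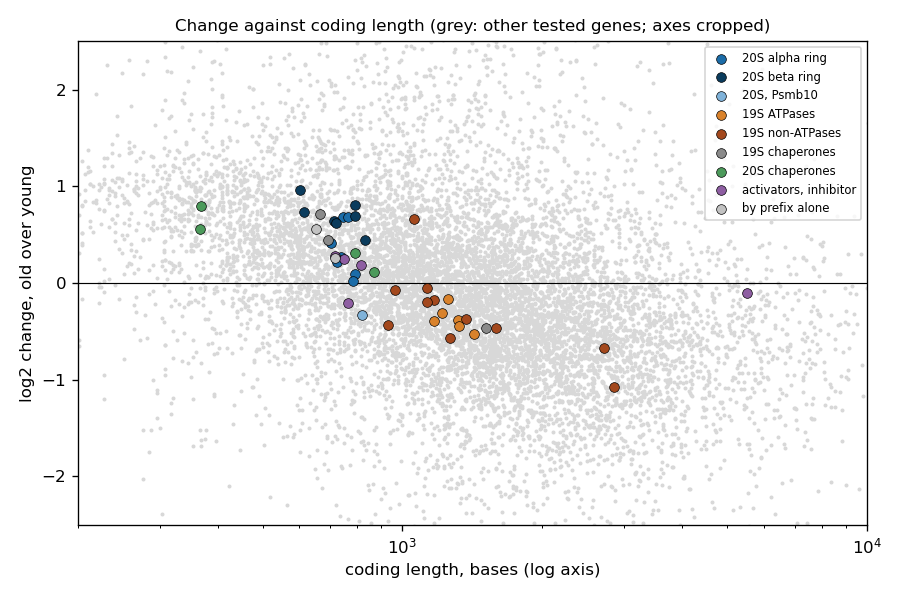
Log2 change in old over young libraries (y axis) against coding length in bases (x axis, log scale) for the 46 tested members, coloured by particle, over other tested genes in grey. The axes leave out some grey points. Alpha and beta ring genes sit at 603 to 831 bases and above 0, and 19S genes other than Psmd8 at 930 to 2859 bases and below 0.

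Of the 4 chaperones of the core 1 rose, and all 4 had log2 changes above 0, while 1 of the 3 chaperones of the cap rose. Among all tested genes 11.2% were called higher and 45.4% had a log2 change above 0, and lists this short cannot be told from these shares. Psmg4, a partner of Psmg3 in placing the alpha subunits, had 69.8, 79.8 and 87.2 CPM in old and 48.5, 37.9 and 50.2 CPM in young libraries (log2 change 0.79 ± 0.21; adjusted p = 0.0235, edgeR). Psmg3 had 99.05, 118 and 93.9 CPM in old and 75.8, 57.1 and 78.0 CPM in young libraries without passing (0.56 ± 0.20; adjusted p = 0.0748, edgeR), and Psmg2 and Psmg1 had log2 changes of 0.31 and 0.11. The call of Psmg4 was lost in the fits on transcript and on coding length (0.03 and 0.10), with library totals, and without old library 2, old library 3, young library 1 or young library 2. Of the chaperones that hold ATPase pairs during assembly of the base, Psmd9 (p27) had 78.6, 90.8 and 101 CPM in old and 59.4, 51.5 and 53.4 CPM in young libraries (0.72 ± 0.19; adjusted p = 0.0246, edgeR). An opposite-strand predicted gene covers 25.5% of the exons of Psmd9, and its call was lost with library totals, in the fit on coding length, and without old library 2 or 3 or young library 1 or 2. Psmd10 (gankyrin) and Psmd5 (S5b) did not pass, with log2 changes of 0.45 and -0.47.

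The activators and the inhibitor had no gene that passed among 5, also at an unadjusted p under 0.05 in edgeR and by DESeq2 and limma-voom. By edgeR 11.2% of all tested genes were higher and 8.14% lower, and a list of 5 cannot be told from these shares. Psme1 and Psme2, the interferon-inducible subunits of PA28, had all old libraries above all young ones by small margins, an order found in 19.3% of all tested genes. Psme1 had 412, 429 and 510 CPM in old and 372, 393 and 378 CPM in young libraries (log2 change 0.24 ± 0.13; adjusted p = 0.249, edgeR). Psme2 had 427, 469 and 480 CPM in old and 366, 357 and 410 CPM in young libraries (0.28 ± 0.13; adjusted p = 0.162, edgeR), and 51.7% of its read-length words recur in its copy Psme2b. Psme3, the nuclear PA28 gamma, had a log2 change of -0.21, Psme4 (PA200) of -0.10 ± 0.45 and Psmf1, the inhibitor PI31, of 0.18 ± 0.30. The count ratio of Psme3 to the sum of Psme1 and Psme2 was 0.227, 0.241 and 0.171 in old and 0.268, 0.327 and 0.282 in young libraries, without overlap. This order depended on length. With offsets on transcript length Psme3 was at 0.14 and Psme1 and Psme2 at -0.24 and -0.21, the opposite order. With offsets on coding length they were at -0.28, -0.07 and 0.05. The last 2 members carry the prefix without being subunits of these particles. Psmc3ip, a recombination cofactor known from meiosis, had a log2 change of 0.56 ± 0.39, and Psme2b, the copy of Psme2, of 0.26 ± 0.48.

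**Figure D5:**
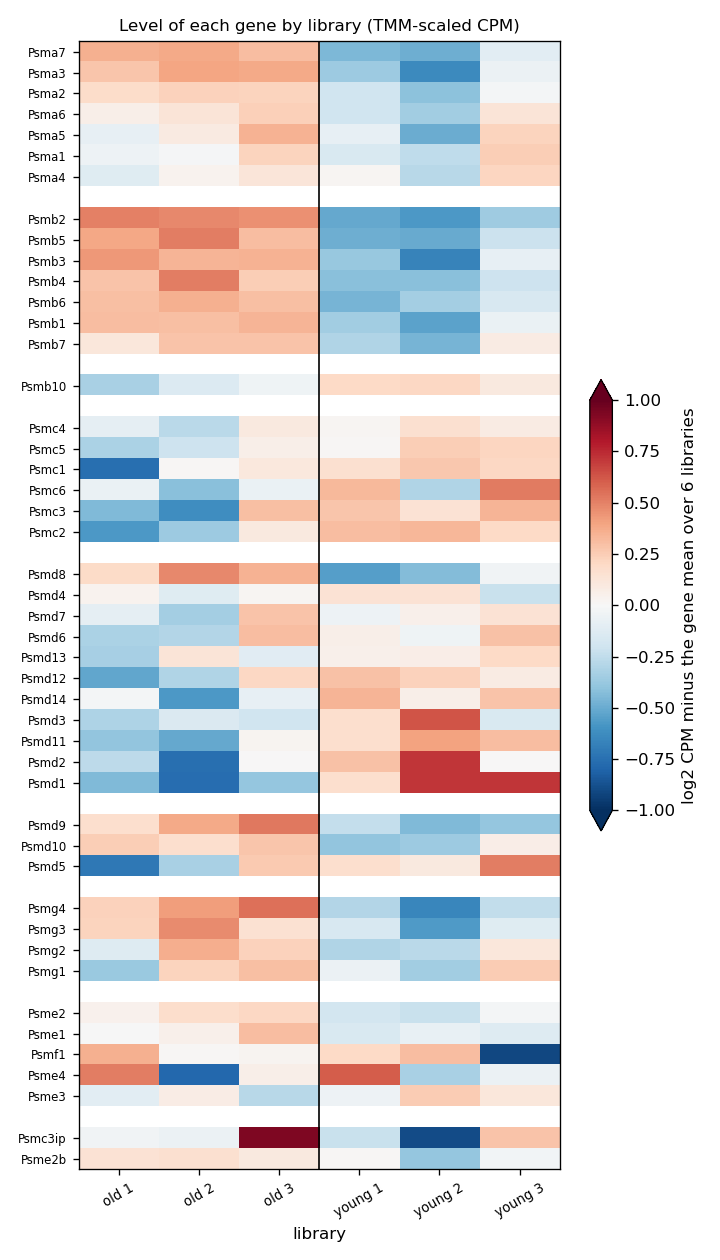
Log2 CPM of each tested member minus its mean over the 6 libraries (colour scale from -1 to 1), with old libraries 1 to 3 left and young libraries 1 to 3 right, genes grouped by particle as in the plot of changes. Beta ring genes are red in all old libraries, most 19S genes other than Psmd8 are blue in old libraries 1 and 2, and old library 3 is paler or red for many of them.

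Genes that work with the proteasome were read from 4 lists. Over all tested genes 11.2% were higher and 8.14% lower. Of 11 tested bound factors 3 rose and none fell. For falls edgeR gave 2 at an unadjusted p under 0.05, and DESeq2 and limma-voom called 1 each. Shfm1 (also named Sem1), the smallest 19S subunit and one without the prefix, had 1175, 1237 and 1154 CPM in old and 543, 428 and 640 CPM in young libraries (log2 change 1.15 ± 0.15; adjusted p = 0.000457, edgeR). Pomp, the chaperone that guides beta ring assembly, had 764, 858 and 819 CPM in old and 419, 377 and 559 CPM in young libraries (0.85 ± 0.16; adjusted p = 0.00354, edgeR). Both calls held in the fits on transcript and coding length, Shfm1 at 0.71 and 0.49 and Pomp at 0.74 and 0.47. Txnl1, a thioredoxin-like protein of the 19S cap, rose by 0.60, a call lost with library totals (0.19) and without young library 1, and the ubiquitin receptor Adrm1 and the deubiquitinase Usp14 did not pass, with log2 changes of -0.10 and -0.40. Adrm1 and Usp14 share 72.5% and 45.0% of their 75-base words with other annotated genes, so their counts are uncertain.

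In the route that controls proteasome genes Maff and Mafg rose, Nfe2l1 fell and 4 of 7 were not called, beside 11.2% higher and 8.14% lower among all tested genes. Nfe2l1, the factor that raises proteasome transcription when proteasomes are inhibited, had 35.3, 44.7 and 31.8 CPM in old and 85.0, 61.8 and 59.3 CPM in young libraries (log2 change -0.88 ± 0.24; adjusted p = 0.027, edgeR). Its call was lost in the fits on transcript and coding length (-0.37 and -0.38) and without old library 1 or 3 or young library 1 or 2. Maff, a small partner of such factors, had 25.6, 29.7 and 16.1 CPM in old and 3.76, 6.89 and 6.87 CPM in young libraries (2.02 ± 0.45), and Mafg rose by 0.74. The call of Mafg was lost with library totals (0.32), in the fit on coding length (0.17) and without any single library other than old library 3. Nfe2l2 (NRF2) was not called, at -0.32 ± 0.34 on the log2 scale.

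Of the 4 ubiquitin genes and E1 enzymes reported here, Rps27a, a ubiquitin and ribosomal protein fusion, rose by 0.61 on the log2 scale (adjusted p = 0.0178, edgeR). Its call was lost with library totals (0.20), in the fits on transcript length (0.10) and coding length (0.27), and without old library 2 or 3 or young library 1 or 2. Uba1, the main E1 enzyme, fell, with a log2 change of -1.22 ± 0.24 (adjusted p = 0.00478, edgeR). Of the 8 shuttle and segregase genes 3 fell, beside 8.14% of all tested genes, and none rose, beside 11.2%, also for rises at an unadjusted p under 0.05 in edgeR and by DESeq2 and limma-voom. Vcp, the ATPase that extracts ubiquitinated proteins for the proteasome, had 41.6, 52.0 and 82.1 CPM in old and 141, 181 and 114 CPM in young libraries (-1.31 ± 0.27; adjusted p = 0.0062, edgeR). Its cofactor Nploc4 and the shuttle Ubqln4 fell by 0.97 and 1.22 on the log2 scale. The call of Nploc4 was lost in the fit on transcript length (-0.43) and without young library 2, and that of Ubqln4 without young library 1 or 2. Rps27a and Vcp share 67.5% and 59.7% of their 75-base words with other annotated genes, so their counts are uncertain. In the fit on coding length none of the NFE2L1 route or of the 4 ubiquitin and E1 genes was called, and of the shuttle and segregase genes 1, Rad23b, was called higher (0.76) and none lower.

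Shared sequence also bears on some members. At the read length of 75 bases at least 10% of the words of 13 members occur in another annotated gene. Among called members the share was 40.0% for Psmb5, 33.1% for Psmb3 and 21.3% for Psma3, and it was 0 for Psmb2, Psmb4, Psmb6, Psmb1, Psma7, Psmd8 and Psmg4 and 7.60% for Psmd1.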

How the data were processed

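The deposited table holds raw read counts per gene for 3 old and 3 young libraries. The reads were 75 bases long. STAR 2.5.3a, Cufflinks 2.0 and DESeq2 1.1 are named with mm10, per the submitters' processing notes, beside bcl2fastq 2.20.0.422 and FastQC 1.0.0 for earlier steps. Which tool counted, on which gene models and with which strandedness is not given in the sources used here. Groups came from the sample titles. Counts were fitted in R 4.3.3 with edgeR 4.0.16 (filterByExpr with a minimum count of 10, TMM, glmQLFit and glmQLFTest), with Benjamini-Hochberg adjustment over 11805 tested genes and a threshold of 0.05; the method was tested on simulated data. The biological coefficient of variation was 53%. Alternatives were DESeq2 1.42.0, limma-voom 3.58.1, other scalings and filters, length and GC offsets, each library left out, and a replicate block; offsets on coding length were chosen after seeing the data. Lengths, GC content and shared 75-base words came from GENCODE vM21 on GRCm38, and promoters from RefSeq. The members and lists were chosen with earlier results of these data known. Named are, in each group, up to 4 called members with the smallest p, those that go against their group, up to 2 not called with the largest change, the catalytic subunits and those not tested. Psma6, Psmb10, Psmc3, Psmd4, Psmd7, Psmd11 and Psmd14 where outside this rule, and the motifs and promoters, were chosen after values were seen. Some genes of the fixed lists are not reported here.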

Additional observations from a re-analysis of the deposited data

How the results depend on the processing

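The counts of called members moved most with the scaling and with gene length. Of the members 12 were higher and 1 lower; library totals gave 1 and 17, offsets on transcript length and GC content 5 and 6, the same with the replicate block 5 and 4, and offsets on coding length 6 higher. DESeq2, limma-voom and no filter on low counts gave 3 lower each and a minimum count of 50 gave 2. Leaving out each library gave 6 to 15 higher and 1 to 5 lower, with 5 lower without old library 3. In the alpha ring (3 higher, 0 lower) library totals gave 0 higher, offsets on transcript length 1 lower, and leaving out a library 1 to 4 higher. In the beta ring (6 higher) library totals gave 1, offsets on transcript length 2 with or without the block, offsets on coding length 3, and leaving out a library 5 to 7. Of the 19S ATPases (0 lower) limma-voom gave 1, library totals 6, offsets on transcript length 2 with or without the block, and leaving out a library 0 to 2. Of the 19S non-ATPases (1 higher, 1 lower) library totals gave 0 and 8, offsets on transcript length 0 and 2, the same with the block 0 higher, DESeq2 and no filter 3 lower, limma-voom and a minimum count of 50 2 lower, offsets on coding length 0 lower, and leaving out a library 0 to 1 higher and 1 to 3 lower. Over all genes (1325 higher, 961 lower) library totals gave 717 and 2381, the block with offsets 467 lower, offsets on coding length 542 lower, and leaving out a library 915 to 1344 higher and 399 to 849 lower.

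The median log2 change of all members (0.15) was -0.27 with library totals, -0.17 with offsets on transcript length, -0.18 with these and the block, and 0.040 to 0.28 without each library. The same settings gave -0.14, -0.058, -0.0498 and 0.18 to 0.45 for the alpha ring (0.27) and 0.28, 0.13, 0.14 and 0.63 to 0.80 for the beta ring (0.70). The ATPase median (-0.39) was -0.80 with library totals, -0.077 with offsets on coding length and -0.50 to -0.29 without each library, and the non-ATPase median (-0.37) was -0.79, -0.033 and -0.47 to -0.23. The 20S median lay above the 19S median by 1.01, by 0.58 with offsets on transcript length, 0.60 with the block as well, 0.43 with offsets on coding length and 0.87 to 1.12 without each library.

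Some genes of the 46 tested members and of the 17 other genes recomputed changed sign, and of these Psma4 alone was called in the setting that turned it, lower with offsets on transcript length. With library totals the sign changed for Psma1 (-0.32), Psma4 (-0.40), Psma5 (-0.19), Psma6 (-0.14), Psme1 (-0.17), Psme2 (-0.13), Psme2b (-0.16), Psmf1 (-0.25), Psmg1 (-0.30) and Psmg2 (-0.11). With offsets on coding length it changed for Nfe2l2 (0.29), Psma4 (-0.061), Psmc4 (0.014), Psmd2 (0.11), Psmd6 (0.084), Psmd7 (0.034), Psme1 (-0.071), Psme4 (0.79) and Psmg3 (-0.21). With offsets on transcript length it changed for Psma1 (-0.31), Psma4 (-0.39), Psma5 (-0.058), Psma6 (-0.15), Psmb6 (-0.051), Psmd5 (0.052), Psme1 (-0.24), Psme2 (-0.21), Psme2b (-0.23), Psme3 (0.14), Psme4 (0.53), Psmg1 (-0.30), Psmg2 (-0.12), Psmg3 (-0.11) and Usp14 (0.0014). With the block added the values were -0.31, -0.39, -0.0498, -0.15, -0.0480, 0.021, -0.26, -0.21, -0.23, 0.14, 0.48, -0.31, -0.12, -0.098 and 0.019 in that order of genes. Leaving out each library gave values on both sides of 0 for Psma4 (-0.097 to 0.17), Psmd4 (-0.14 to 0.025), Psmd7 (-0.26 to 0.056), Psme4 (-0.43 to 0.23), Psmf1 (-0.082 to 0.41) and Psmg1 (-0.015 to 0.30), none of them called. Apart from these settings, the cause of each change was not tested.

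Whether the replicate numbers pair old with young libraries is not given in the labels, and the values do not settle it. Same-numbered old and young libraries correlated in their deviations at 0.02, 0.009 and 0.041, and those of other numbers at -0.027 to 0.012. With the replicate block as a term 1208 genes were higher and 800 lower, Psma2 lost its call among the members, and 5 of 6 libraries correlated best with their own number. With 3 libraries a group, members of low level such as Psme4 (SE 0.45) could not be resolved.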
